A study of Mus musculus with 4 samples.

Results

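The probes described here cover 4 imprinted genes on distal chromosome 7 of the mouse, H19, Igf2, Kcnq1ot1 and Cdkn1c. A probe was a member when its mm9 position lay within chr7:149755000-149860000 (H19, its control region and Igf2), chr7:150390000-150490000 (Kcnq1ot1) or chr7:150640000-150652000 (Cdkn1c). Membership of a probe thus followed from its position. This rule took 248 of the 174638 genomic probes, namely 231, 9 and 8 in the 3 windows. They gave 12 of the 17452 elements, runs of probes readable in the input, that the array held in all. The windows were chosen with earlier results of these data known. The data are 4 two-colour arrays on which DNA immunoprecipitated with an antibody against 5-methylcytosine (IP, Cy5) was hybridized together with input DNA (Cy3). They come from 3T3-L1, a mouse fibroblast line that becomes adipocytes on induction. A line stably transfected with shRNA8, directed against the long non-coding RNA slincRAD, was set against the wild type control line. Each line was sampled at day +2, after induction with insulin (167 nM), dexamethasone (1 µM) and 3-isobutyl-1-methylxanthine (0.5 mM), and at day -2, before it. The labels do not say whether the shRNA8 line is 1 clone or a pool, and the control is wild type without a control shRNA. The arrays do not read RNA, so the level of slincRAD was not checked. There was 1 array for each line and day, so replicate error is unknown and no p-value is given. An SD beside a value is taken over probes of the same arrays.

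Imprinted genes are expressed mainly from the maternal or the paternal copy, and the choice is kept by DNA methylation that one copy carries from its germ cell. H19, a maternally expressed non-coding RNA, and Igf2, which encodes a fetal growth factor expressed from the paternal copy, share enhancers and answer to a control region between them. That region is methylated on the paternal copy. On the unmethylated maternal copy it binds CTCF, which keeps the enhancers from reaching Igf2. Kcnq1ot1 is a long non-coding RNA antisense to Kcnq1. Its promoter lies within an intron of Kcnq1 and is methylated on the maternal copy, and the paternally made RNA silences neighbours in cis, among them Cdkn1c. Cdkn1c encodes p57, an inhibitor of cyclin-dependent kinases. The arrays read both parental copies together, so none of the values below separates them.

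The antibody binds methylated cytosines, which in most mammalian cells lie at CpG, so CpG content sets how much methylation a promoter can hold. RefSeq promoters of GRCm38.p6, from 250 bases before to 50 after the start, were available for Kcnq1ot1 (1) and Igf2 (4), and H19 and Cdkn1c had no entry. The Kcnq1ot1 promoter and, for contrast, the 250 bases before the most and the least CpG-rich of the 4 Igf2 starts are printed 5′ to 3′ with each CG in capitals. They lie at chr7:143296498-143296797, chr7:142658805-142659054 and chr7:142666817-142667066 of GRCm38.p6, all on the minus strand, a build other than the mm9 of the probes.
Kcnq1ot1 promoter: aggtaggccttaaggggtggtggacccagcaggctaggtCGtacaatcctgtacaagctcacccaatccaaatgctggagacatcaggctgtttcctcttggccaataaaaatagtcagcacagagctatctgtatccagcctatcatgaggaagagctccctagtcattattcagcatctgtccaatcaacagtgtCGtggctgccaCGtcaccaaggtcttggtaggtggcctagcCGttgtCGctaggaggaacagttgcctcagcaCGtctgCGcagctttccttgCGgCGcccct
Igf2 promoter, most CpG-rich: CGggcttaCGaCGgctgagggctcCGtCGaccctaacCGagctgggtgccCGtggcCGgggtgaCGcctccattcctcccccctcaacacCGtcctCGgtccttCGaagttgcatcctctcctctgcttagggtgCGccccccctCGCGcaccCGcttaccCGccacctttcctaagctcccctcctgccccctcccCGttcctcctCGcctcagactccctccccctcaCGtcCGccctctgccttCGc
Igf2 promoter, least CpG-rich: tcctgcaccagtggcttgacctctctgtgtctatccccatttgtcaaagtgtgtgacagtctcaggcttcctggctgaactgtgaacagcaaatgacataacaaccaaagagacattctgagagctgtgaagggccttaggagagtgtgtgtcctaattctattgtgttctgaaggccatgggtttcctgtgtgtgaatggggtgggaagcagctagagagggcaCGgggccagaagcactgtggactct
The Kcnq1ot1 sequence holds 9 CG over its whole length, and 45.8% of 32851 RefSeq promoters hold at least as many. The 2 Igf2 stretches hold 22 and 1 CG in 250 bases, and 14.8% and 92.1% of promoters hold at least as many there. CG reads the same on both strands. The Kcnq1ot1 sequence also holds CCAAT 3 times, counting both strands, which 3.37% of promoters reach. CCAAT is the motif of the factor NF-Y.

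The array covered the 4 genes unevenly. The H19 stretch ran without a gap above 1000 bp from chr7:149758752 to 149806238, a span of 47487 bp with 212 probes. By number of probes and by span it was the second of 22125 stretches on the array. Igf2 had 19 probes over 5070 bp (chr7:149842941-149848010). Kcnq1ot1 had 9 over 1747 bp (chr7:150481965-150483711), and Cdkn1c had 8 over 1767 bp (chr7:150646464-150648230). Neighbouring probes started a median of 208 to 240.0 bp apart. The Kcnq1ot1 window was thus read in a single promoter-sized segment. No mm9 annotation was used, so the H19 transcript and its control region were not marked off within their stretch.

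Input was dim on all 4 arrays, and a ratio is only readable where the input lies above background. Of the 248 member probes, 146 passed in all 4 arrays (118 of H19, 13 of Igf2, 8 of Kcnq1ot1 and 7 of Cdkn1c), or 55.7%, 68.4%, 88.9% and 87.5% of each gene's probes. Of all probes 54.4% passed. The 102 left out had a median input of 2.31 and 1.85 in shRNA8 cells (day +2, day -2) and 1.06 and 1.33 in control cells (day +2, day -2), and a median IP of 22.3 and 24.0 in shRNA8 cells (day +2, day -2) and 19.7 and 19.2 in control cells (day +2, day -2), in units of background-subtracted signal. The 146 that passed had a median IP of 225 and 222 in shRNA8 cells (day +2, day -2) and 195 and 202 in control cells (day +2, day -2). Over all passing probes of the array the median IP was 169 and 168 in shRNA8 cells (day +2, day -2) and 148 and 146 in control cells (day +2, day -2). The members were thus brighter in IP than the array's median probe on each of the 4 arrays. Their median input was 31.1 and 37.7 in shRNA8 cells (day +2, day -2) and 23.6 and 25.4 in control cells (day +2, day -2). Over all passing probes of the array the median input was 28.4 and 29.3 in shRNA8 cells (day +2, day -2). In control cells it was 20.3 and 21.9 (day +2, day -2). The members were thus brighter than the array's median in both channels.

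The level used below is the log2 ratio of IP to input, taken to a median of 0 on every array and then quantile normalized. It describes a probe far more than a sample. Across the 146 probes the mean over 4 arrays had an SD of 1.72, whereas the median probe had an SD of 0.27 over the 4 arrays. For the whole array these were 1.63 and 0.26. Between any pair of arrays the member probes correlated with Pearson's r of 0.954 to 0.961 for the ratio, 0.998 to 0.999 for IP and 0.961 to 0.969 for input, across 146 probes that share each array's labelling and their own base composition. The scanner software's own error of a ratio, in log2 units, had a median over the members of 0.26 and 0.26 in shRNA8 cells (day +2, day -2) and 0.28 and 0.28 in control cells (day +2, day -2). All 4 arrays sat on 1 slide and were scanned together, shRNA8 at positions 1 and 2 and control at positions 3 and 4. Line and slide position cannot be told apart.

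Passing probes up to 1000 bp apart were joined into elements, and 12 elements held at least 3 probes. Of these, 9 lay in the H19 stretch and are numbered by position, and Igf2, Kcnq1ot1 and Cdkn1c had 1 each. One further H19 group held 2 probes and was left out. The ratio varied along the H19 stretch, and most of it lay near the middle of the array's range. H19 element 2 (chr7:149769699-149771276, 7 probes) was the highest, at 0.60 and 0.87 in shRNA8 cells (day +2, day -2) and 0.97 and 0.60 in control cells (day +2, day -2). That is the percentile 86.3 to 95.1 of the 17452 elements in the 4 arrays. H19 element 5 (chr7:149780191-149782200, 7 probes) was the lowest, at -2.26 and -2.08 in shRNA8 cells (day +2, day -2) and -2.05 and -2.19 in control cells (day +2, day -2). It stood at percentile 2.29 to 3.05, and its neighbour H19 element 4 (chr7:149777120-149778981, 6 probes) at percentile 8.14 to 11.8. H19 element 4 had a ratio of -1.23 and -1.29 in shRNA8 cells (day +2, day -2) and -1.46 and -1.40 in control cells (day +2, day -2). In all 4 arrays element 2 was the highest of the 12 elements and element 5 the lowest.

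**Figure D1:**
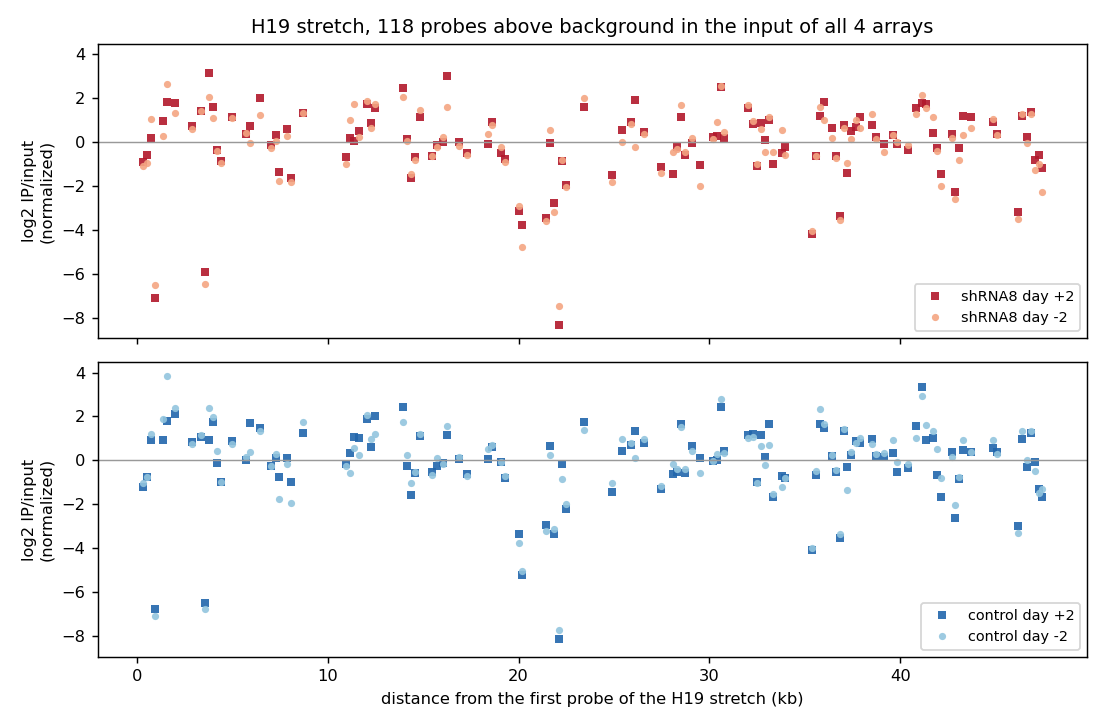
Normalized log2 ratio of IP to input of each of the 118 passing probes of the H19 stretch (vertical axis) against distance from its first probe in kb (horizontal axis), for shRNA8 cells (upper panel) and control cells (lower panel), squares for day +2 and circles for day -2, 1 array each. The same probes are high or low in all 4 arrays, and the lowest probes recur in each.

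The lowest levels rest on a few probes. In H19 element 5, 3 of 7 probes lay below -2 in all 4 arrays and 1 lay above 0 in all 4. Its lowest probe, chr7:149780826-149780870, had a ratio of -8.34 and -7.49 in shRNA8 cells (day +2, day -2) and -8.13 and -7.73 in control cells (day +2, day -2). The IP signal there was 2.78 and 4.33 in shRNA8 cells (day +2, day -2) and 1.98 and 3.19 in control cells (day +2, day -2), against a higher input of 154 and 155 in shRNA8 cells (day +2, day -2) and 124 and 124 in control cells (day +2, day -2). The IP of this probe was not above background in at least 1 array, so its ratio has no reliable size. The same held for 1 probe each of H19 elements 1 and 4, that is for 3 of the 146 members (2.05%) and 2.37% of the array's passing probes, since only the input was filtered. Without its probe, element 5 had a mean of -1.25 and -1.18 in shRNA8 cells (day +2, day -2) and -1.04 and -1.27 in control cells (day +2, day -2). That was still the lowest of the 12 in each array when elements 1 and 4 were also taken without theirs. Without its probe, chr7:149778930-149778981, element 4 had -0.73 and -0.59 in shRNA8 cells (day +2, day -2) and -0.71 and -0.67 in control cells (day +2, day -2), above element 9 in shRNA8 cells at day -2 and below it in the other 3 arrays. Element 1 became 0.27 and 0.041 in shRNA8 cells (day +2, day -2) and 0.19 and 0.30 in control cells (day +2, day -2) without its probe. That mean still held chr7:149762300-149762344, a probe with an IP of only 3.19 to 4.34 over the 4 arrays. The ratio of this probe was -5.91 and -6.46 in shRNA8 cells (day +2, day -2) and -6.53 and -6.76 in control cells (day +2, day -2). At the other end, chr7:149789324-149789368 in H19 element 6 had a ratio of 2.53 and 2.53 in shRNA8 cells (day +2, day -2) and 2.42 and 2.81 in control cells (day +2, day -2), with an IP signal of 1074 and 1142 in shRNA8 cells (day +2, day -2) and 975 and 884 in control cells (day +2, day -2). Over the 146 members, 13 probes (8.90%) lay below -2 in all 4 arrays and 22 (15.1%) lay above 1 in all 4. Over all 95060 passing probes these shares were 11.4% and 12.2%, so the members held a smaller share of very low and a larger share of high probes, a difference that was not tested.

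The other H19 elements lay between these ends. H19 element 1 (chr7:149759043-149767475, 24 probes), at the low-coordinate end of the stretch, had ratios of -0.034 and -0.23 in shRNA8 cells (day +2, day -2) and -0.10 and -0.0041 in control cells (day +2, day -2), with an SD over probes of 2.23 to 2.54. H19 element 8 (chr7:149794120-149802500, 29 probes), the element with the most probes, had 0.040 and -0.079 in shRNA8 cells (day +2, day -2) and 0.015 and 0.19 in control cells (day +2, day -2). H19 element 3 (chr7:149772662-149776067, 11 probes) had 0.28 and 0.13 in shRNA8 cells (day +2, day -2) and 0.069 and 0.17 in control cells (day +2, day -2). H19 element 6 (chr7:149783628-149789569, 16 probes) had 0.13 and 0.026 in shRNA8 cells (day +2, day -2) and 0.25 and 0.28 in control cells (day +2, day -2). H19 element 7 (chr7:149790777-149792763, 9 probes) had 0.18 and 0.26 in shRNA8 cells (day +2, day -2) and 0.13 and -0.15 in control cells (day +2, day -2). These 5 elements had percentiles of 48.8 to 74.4. H19 element 9 (chr7:149804912-149806238, 7 probes), the last before the gap to Igf2, was lower at -0.44 and -0.79 in shRNA8 cells (day +2, day -2) and -0.59 and -0.56 in control cells (day +2, day -2).

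Igf2, the growth factor gene, was read by 13 passing probes at chr7:149842941-149847306. The mean ratio was -0.32 and -0.088 in shRNA8 cells (day +2, day -2) and -0.21 and -0.32 in control cells (day +2, day -2), with an SD over probes of 1.63 to 1.87. It was bright in both channels, with a median IP of 569 and 561 in shRNA8 cells (day +2, day -2) and 519 and 489 in control cells (day +2, day -2). Its median input was 66.8 and 62.5 in shRNA8 cells (day +2, day -2) and 48.2 and 47.1 in control cells (day +2, day -2). The mean is pulled down by 1 probe, chr7:149847262-149847306, whose ratio was -5.07 and -4.81 in shRNA8 cells (day +2, day -2) and -4.70 and -5.69 in control cells (day +2, day -2). Its input was 1163 and 1014 in shRNA8 cells (day +2, day -2) and 748 and 1433 in control cells (day +2, day -2), higher than its IP of 194 and 187 in shRNA8 cells (day +2, day -2) and 168 and 166 in control cells (day +2, day -2). The median over the 13 probes, which that probe moves little, was -0.086 and -0.17 in shRNA8 cells (day +2, day -2) and 0.13 and -0.38 in control cells (day +2, day -2).

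The Kcnq1ot1 segment, at chr7:150481965-150483491 with 8 passing probes, had a mean ratio of 0.019 and 0.26 in shRNA8 cells (day +2, day -2) and 0.17 and -0.088 in control cells (day +2, day -2), and an SD over probes of 1.44 to 1.65. Its brightest probe was chr7:150482160-150482204. The IP signal there was 3129 and 3110 in shRNA8 cells (day +2, day -2) and 2647 and 2660 in control cells (day +2, day -2), and the ratio was 1.06 and 1.03 in shRNA8 cells (day +2, day -2) and 1.01 and 1.11 in control cells (day +2, day -2). This probe hardly moved between the arrays. In the same segment, chr7:150482981-150483026 had ratios of -2.74 and -2.83 in shRNA8 cells (day +2, day -2) and -2.65 and -2.83 in control cells (day +2, day -2). The spread of the ratio within this single segment was therefore wider than any difference between the 4 arrays. The Cdkn1c segment, at chr7:150646464-150647953 with 7 passing probes, had a mean ratio of -0.20 and -0.45 in shRNA8 cells (day +2, day -2) and -0.15 and -0.24 in control cells (day +2, day -2), with an SD over probes of 1.18 to 1.34. Its median input was the brightest of the 12 elements on each array, at 132 and 149.7 in shRNA8 cells (day +2, day -2) and 103 and 107 in control cells (day +2, day -2). Its median IP was 346 and 372 in shRNA8 cells (day +2, day -2) and 335 and 328 in control cells (day +2, day -2).

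**Figure D2:**
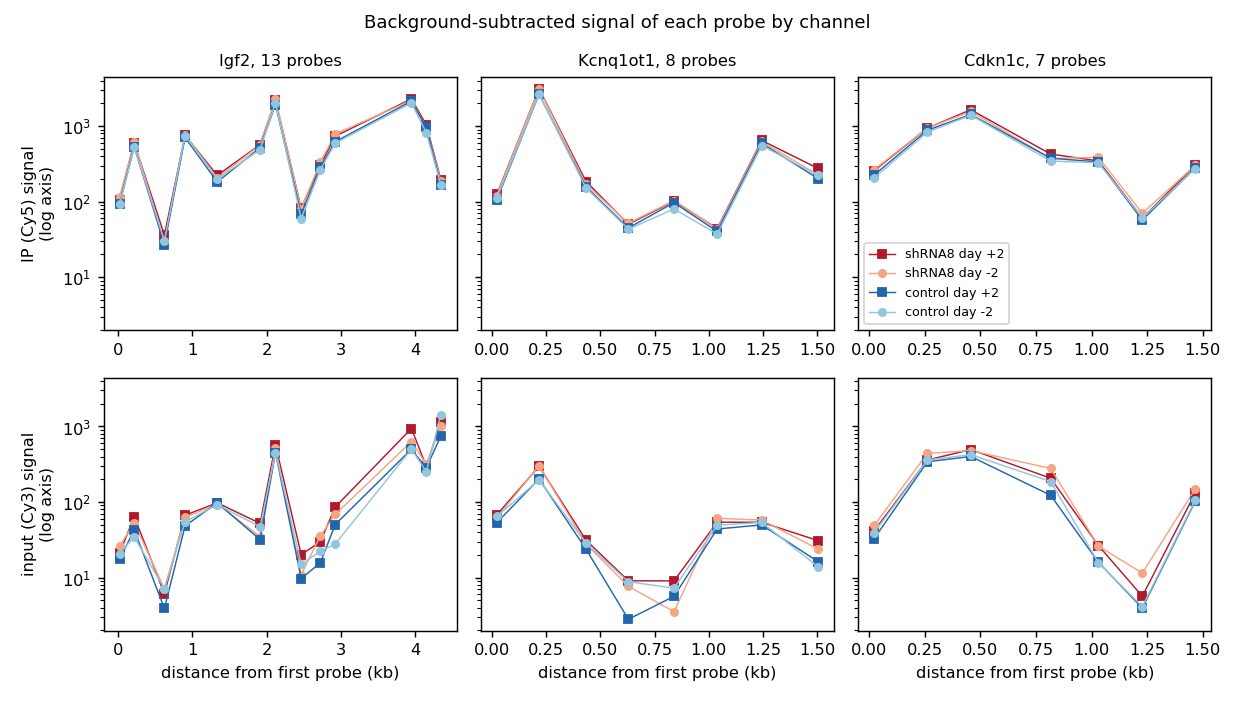
Background-subtracted signal of each passing probe (vertical axis, log scale) in the IP channel (upper row) and the input channel (lower row) against distance from the first probe in kb, for Igf2, Kcnq1ot1 and Cdkn1c, squares for day +2, circles for day -2, red for shRNA8 cells and blue for control cells. The IP lines of the 4 arrays nearly coincide. The input lines part most where the input is dim for Kcnq1ot1 and Cdkn1c, but not for Igf2.

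Averaged over the 4 arrays, the mean ratio was highest for Kcnq1ot1 (0.088, 8 probes). Then came the whole H19 stretch (-0.14, 118 probes), in which the H19 transcript was not marked off, Igf2 (-0.23, 13 probes) and Cdkn1c (-0.26, 7 probes). No neighbours in this order differed beyond the spread over probes, whose SD was 1.18 or more in each gene and array. Without the 3 probes dark in IP the H19 mean was 0.028 (115 probes), still between Kcnq1ot1 and Igf2. The medians over all passing probes kept the order, at 0.57, 0.17, -0.13 and -0.73. Over the 12 elements the median ratio was -0.0077 and -0.084 in shRNA8 cells (day +2, day -2) and -0.045 and -0.12 in control cells (day +2, day -2). Over all 17452 elements the median was -0.19 and -0.21 in shRNA8 cells (day +2, day -2) and -0.20 and -0.21 in control cells (day +2, day -2). Between 7 and 8 of the 12 lay above the array's median in each array, so the 4 genes were not set apart from the rest of the array by this measure. The 8 elements that lay between the 3 windows on chromosome 7 had medians of 0.074 and 0.088 in shRNA8 cells (day +2, day -2) and 0.067 and 0.11 in control cells (day +2, day -2). None of these 8 passed the size rule described next in any comparison, and they were not assigned to genes, as no mm9 annotation was used.

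**Figure D3:**
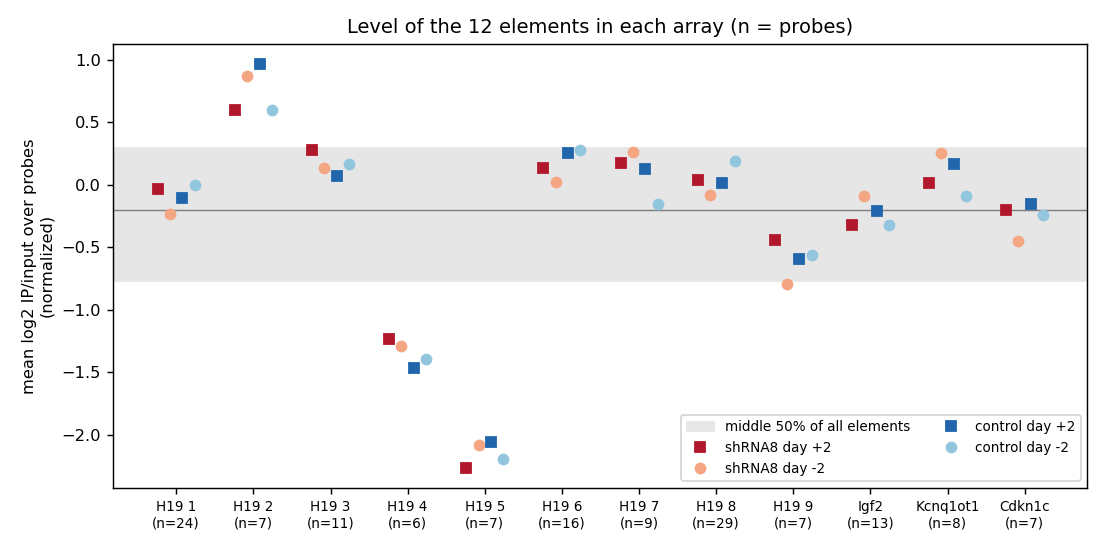
Mean normalized log2 ratio of IP to input over the probes of each of the 12 elements (horizontal axis, with n the number of probes), squares for day +2, circles for day -2, red for shRNA8 cells and blue for control cells, 1 array each. The grey band holds the middle 50% of all 17452 elements and the line is their median. H19 element 2 lies above the band in all 4 arrays, and H19 elements 4 and 5 below it, each with 1 probe whose IP was not above background. Without that probe the mean of element 4 falls inside the band in all 4 arrays, and that of element 5 stays below it.

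At day -2, shRNA8 cells differed from control cells by less at the 4 genes than the size asked for. The size rule asked for a mean difference of 0.6 or more on the log2 scale, with 75% or more of the probes on the same side. None of the 12 elements met it, while 2.43% of the 17452 elements of the array did. A count of 0 of 12 is not set apart from that background. The differences (shRNA8 minus control) ran from -0.27 to 0.42 with a median of 0.036, 6 positive and 6 negative, beside a median of 0.0048 over all elements. Their median size was 0.24, beside 0.16 over all elements. The 4 genes thus lay on both sides of 0. H19 element 7 had the most positive difference, 0.42 ± 0.66 (SD over 9 probes, 6 higher), and H19 element 8 the most negative, -0.27 ± 0.43 (29 probes, 21 lower). In element 7 the IP differed by 0.092 and the input by -0.33. Its probe chr7:149792519-149792572 had 1.74, with an input of 3.15 in shRNA8 cells and 6.24 in control cells. The other probes of element 7 ran from -0.27 to 1.08. Kcnq1ot1 had a ratio of 0.26 in shRNA8 cells and -0.088 in control cells, a difference of 0.35 ± 0.63 with 6 of 8 probes higher. That difference was 0.21 over probes with input well above background and 0.12 without background subtraction. Igf2 had -0.088 in shRNA8 cells and -0.32 in control cells, a difference of 0.24 ± 0.47 with 10 of 13 probes higher. Cdkn1c had -0.45 in shRNA8 cells and -0.24 in control cells, a difference of -0.21 ± 0.44 with 5 of 7 probes lower. Over the 118 probes of the whole H19 stretch the mean difference was -0.10 ± 0.53, 48 higher and 70 lower.

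At day +2, after induction, the differences between the lines at the 4 genes again stayed under the size rule. None of the 12 elements passed, against 3.34% of all elements. The differences ran from -0.37 to 0.23 with a median of -0.012, beside 0.017 over all elements. Their median size was 0.13, beside 0.18 over all elements, so it was below the array's here and above it at day -2. The upper end of the range was H19 element 4, whose difference was -0.016 without its probe dark in IP. The farthest from 0 was H19 element 2, with 0.60 in shRNA8 cells and 0.97 in control cells, a difference of -0.37 ± 0.40 with 6 of 7 probes lower. Its IP differed by -0.046 and its input by 0.36. At day -2 the same element had differed the other way, by 0.27 ± 0.84, with 3 probes higher and 4 lower. Igf2 differed by -0.11 ± 0.30, Kcnq1ot1 by -0.15 ± 0.46 and Cdkn1c by -0.049 ± 0.21. At Kcnq1ot1 4 probes were higher and 4 lower. The H19 stretch as a whole differed by 0.017 ± 0.53 over 118 probes, 61 higher and 57 lower. The line differences of the 2 days share no array. Across the 146 probes they correlated with r of 0.059, and across all 95060 passing probes with r of 0.17. A correlation this weak is no finding.

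**Figure D4:**
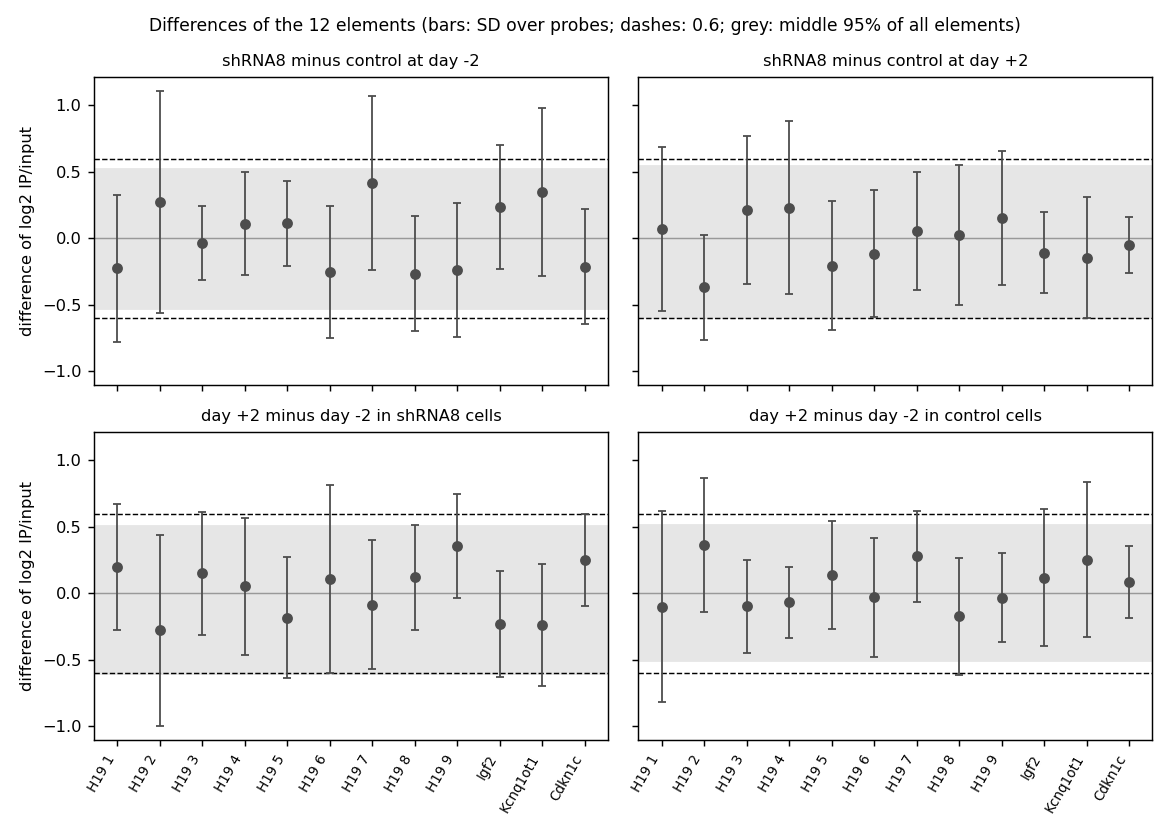
Difference of the mean log2 ratio (vertical axis) of the 12 elements in the 4 comparisons, with bars for the SD over probes, dashed lines at 0.6 and -0.6 and a grey band for the middle 95% of all 17452 elements. All points lie inside the dashed lines.

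Induction was examined in each line. In shRNA8 cells none of the 12 elements passed between day +2 and day -2, against 3.19% of all elements. The differences (day +2 minus day -2) had a median size of 0.19, beside 0.15 over all elements. They ran from -0.28 to 0.36, with a median of 0.080 beside 0.016 over all elements. The largest was at H19 element 9, with -0.44 at day +2 and -0.79 at day -2, a difference of 0.36 ± 0.39 with 6 of 7 probes higher. H19 element 1 differed by 0.20 ± 0.47, with 19 of 24 probes higher. Igf2 differed by -0.23 ± 0.40 (9 of 13 probes lower), Kcnq1ot1 by -0.24 ± 0.46 (5 of 8 lower) and Cdkn1c by 0.25 ± 0.35 (5 of 7 higher). No array repeats any of these, so how they compare with replicate error is unknown. In control cells none of the 12 passed either, against 2.09% of all elements. The differences had a median size of 0.11, beside 0.15 over all elements. They ran from -0.17 to 0.36, with a median of 0.028 beside -0.00021 over all elements. H19 element 2 had the largest, with 0.97 at day +2 and 0.60 at day -2, a difference of 0.36 ± 0.51 with 5 of 7 probes higher. H19 element 7 differed by 0.28 ± 0.34, with 8 of 9 probes higher. Igf2 differed by 0.12 ± 0.52 (6 probes higher, 7 lower, median -0.016) and Kcnq1ot1 by 0.25 ± 0.59 (6 of 8 higher, median 0.15). Cdkn1c differed by 0.085 ± 0.27 (3 higher, 4 lower, median -0.0085).

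The day change in shRNA8 cells minus that in control cells draws on all 4 arrays, with no residual to test it by. It passed the size rule in none of the 12 elements, against 5.8% of all elements. Its median size was 0.31, beside 0.21 over all elements. H19 element 2 had the largest mean, -0.64 ± 1.02, a change of -0.28 in shRNA8 cells and 0.36 in control cells. It was past 0.6 in size, but only 4 of its 7 probes were lower. Its probe chr7:149770101-149770154 had -2.17, with an input of 3.25 to 9.31 over the arrays. Its probe chr7:149769893-149769943 had -1.69, with an input of 6.87 to 15.2. The other probes of H19 element 2 ran from -0.93 to 0.59. Kcnq1ot1 followed at -0.49 ± 0.86, with 6 of 8 probes lower. Of these 8, 2 probes with an input under 10 on every array had -1.84 each, and the other 6 averaged -0.042. The Kcnq1ot1 median over probes was -0.18, and the mean was -0.16 over probes with input well above background and -0.13 without background subtraction. Igf2 stood at -0.35 ± 0.62, with 10 of 13 lower and a median of -0.11. Cdkn1c stood at 0.17 ± 0.40, with 4 of 7 higher. At H19 element 2, Kcnq1ot1 and Igf2 the IP parts of this difference were -0.015, 0.032 and -0.022. The input parts were 0.65, 0.51 and 0.28.

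The IP and input channels moved by different amounts. Over the 12 elements and the 4 comparisons, the IP channel differed by -0.12 to 0.10 after centring on the array median, and the input channel by -0.39 to 0.36. The median size of an IP difference in the 4 comparisons was 0.016 to 0.040, and that of an input difference was 0.083 to 0.23. Over all 17452 elements these medians were 0.031 to 0.043 for IP and 0.15 to 0.18 for input, so a larger movement of the input was general to the arrays. At Cdkn1c, IP at day -2 differed between the lines by -0.010 and input by 0.20. At Kcnq1ot1 these were -0.026 and -0.37. In 6 of the 48 differences the IP moved more than the input. One was H19 element 5 between the days in shRNA8 cells, with -0.11 in IP and 0.00078 in input, and it holds a probe dark in IP. Another was H19 element 9 between the lines at day -2, with -0.12 in IP and 0.10 in input. The part of the input in the differences was not tested.

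**Figure D5:**
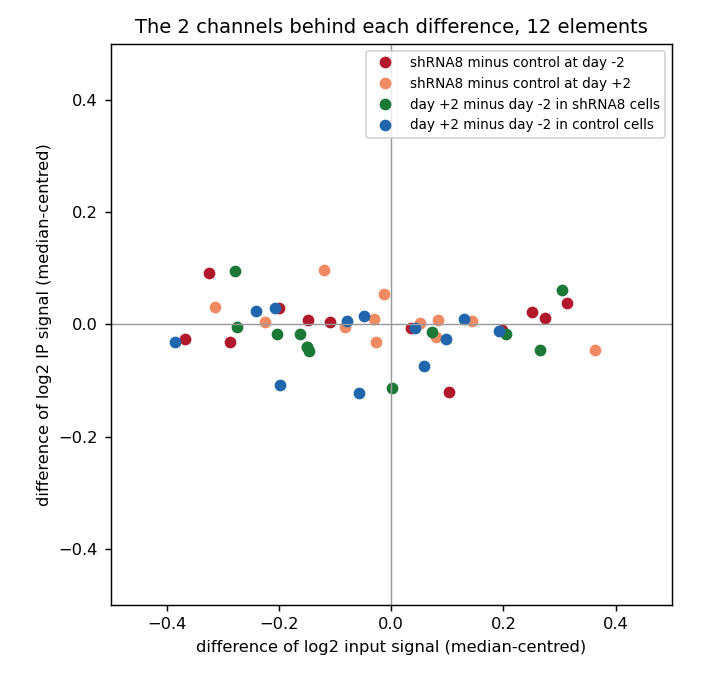
Difference in the IP channel (vertical axis) against that in the input channel (horizontal axis), both log2 and centred on each array's median, for the 12 elements in the 4 comparisons (colours). The points spread from -0.39 to 0.36 along the input axis and from -0.12 to 0.10 along the IP axis.

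The regions elsewhere on the array with the most similar levels were found for the element with the most passing probes in each window, by the Euclidean distance over the 4 normalized log2 ratios. For H19 element 8 they were chr1:160291340-160292751 (distance 0.051, 4 probes) and chr1:52783953-52785032 (distance 0.068, 5 probes). For Kcnq1ot1 they were chr9:64878978-64880678 (distance 0.057, 5 probes) and chr13:67032485-67034792 (distance 0.072, 10 probes), and for Cdkn1c chr5:90652741-90654189 (distance 0.078, 5 probes) and chr17:24685610-24687322 (distance 0.087, 5 probes). With 4 values per region and 17452 regions, such distances describe levels only. The files name no gene at these positions.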

How the data were processed

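Genomic DNA on 4 arrays was analysed, 1 per line and day. The authors deposited Agilent Feature Extraction 11.0.1.1 output on mm9, per the file headers. The intensity columns deposited per spot and channel are the median, the background-subtracted and the dye-normalized processed signal, per the file headers. Of the log10 ratio and its error that the authors deposited per spot, only the error was used. Per the labels, IP carried Cy5 and input Cy3. One input label, that of the shRNA8 array of day +2, describes uninduced cells; the array was kept at day +2, as its title says. The submitters' processing notes name limma without its use.

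The log2 ratio of the processed signals was taken for the 95060 of 174638 probes that carried no saturation or outlier mark and whose input exceeded background on all 4 arrays. Ratios were centred on the array median and quantile normalized, which removes overall differences between arrays. Elements joined passing probes up to 1000 bp apart, at least 3 each. Channel values were centred but not quantile normalized. Printed signals are background-subtracted intensities. No test was made, with 1 array a group, and precision is limited by the number of arrays. Members, lists and rules were chosen with earlier results of these data known. Every element with at least 3 passing probes is named, and for the largest of each window the 2 nearest regions. The element caller was tested on probe differences of these arrays shuffled over positions, with known shifts added. Shuffling removes any likeness between neighbouring probes, so that test says nothing about the counts among the members. Other imprinted genes of the arm were not analysed here, as no mm9 annotation was used. Alternatives were median centring alone, within-array loess (limma 3.58.1, R 4.3.3), no and stricter input filters, no background subtraction, adjustment for probe length, medians over probes, sizes of 0.4 and 1, all probes one way, a gap of 500 bp, each channel alone and, chosen after seeing the data, IP above background too. Python 3.11.15, numpy 2.4.6, pandas 2.3.3 and matplotlib 3.10.9 were used.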

Additional observations from a re-analysis of the deposited data

How the results depend on the processing

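Both line comparisons and the day change in control cells had 0 members past the size rule under all 14 alternatives, one of which, IP and input both above background, was chosen after seeing the data. For IP alone 0 of 17452 elements passed there, and without background subtraction 1 to 14 did, so these counts say nothing about the members. With a 500 bp gap, which cuts the members into 22 elements, 1 passed between the days in shRNA8 cells, beside 3.35% of all elements. It was chr7:149783628-149785359 (0.63 ± 0.87, 5 of 5 probes higher), where 1 probe had 2.15 and the others 0.072 to 0.51. That probe had an input of 2.96 at day +2 and 11.8 at day -2. For the difference of the day changes 2 passed, beside 5.66% of all elements. They were the same element (0.63 ± 0.38) and chr7:149761617-149763160 (0.64 ± 0.88, 7 of 7 higher). In the latter 1 probe with an input of 2.83 to 8.71 had 2.55, and the others 0.087 to 0.72. A size of 0.4 called 1 of 12 for the difference of the day changes, Kcnq1ot1, beside 13.3% of all elements. The share of all elements past the rule ran, over the alternatives on the ratio, at 0.0458% to 8.09% between the lines at day -2, 0.0802% to 10.3% at day +2, 0.0516% to 8.31% between the days in shRNA8 cells, 0.00573% to 7.43% in control cells and 0.138% to 13.3% for the difference of day changes, lowest without background subtraction and highest with a size of 0.4. The median of the 12 elements' means over the 4 arrays was -0.026, against 0.14 without a filter (4 elements), -0.19 with input well above background (14 elements), 0.063 without background subtraction, -0.10 after adjustment for probe length, 0.033 with medians over probes and 0.023 with both channels above background. Of the 20 gene mean differences, 9 changed sign under at least 1 alternative on the ratio. Without a filter the Igf2 difference between the lines at day +2 was -0.33 against -0.11, and its difference of day changes -0.62 against -0.35. The cause was not tested. Depth is limited by the input: 90 of 248 probes lay well above background in all 4 arrays. No paired analysis was possible because each group has 1 array.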

Other observations

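The mean day change over probes had opposite signs in shRNA8 and control cells in 11 of 12 member elements, Cdkn1c being the exception, and the 2 changes share no array. Among the neighbouring elements between the windows it had in 6 of 8, and for input alone in 8 of 8. Over all elements the share was 47.2%. Each difference is below the size rule, and the elements of the H19 stretch lie side by side. Counted by probe, 79 of 146 members had opposite signs, or 54.1%, beside 48.2% of all passing probes. The count was 11 of 12 with median centring alone, 6 of 12 without background subtraction, 6 of 14 with input well above background, 2 of 4 without a filter, 5 of 12 for IP alone and 10 of 12 for input alone. Without the 3 probes dark in IP it was 10 of 12. The pattern was noticed after the values were seen.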
